A study of Mus musculus with 38 samples.

Results

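The report covers 59 genes whose products drive mitosis, from the cyclins and kinases that start it to the proteins that cut the daughter cells apart. They were taken by name from 4 tables of normalised counts per gene, each table requiring a mean of 10 or more over its libraries. Each of the 59 passed in each table, among 19450 genes in the whole-skin knockout set, 18311 in the whole-skin P95H set, 17744 in sorted knockout cells and 14914 in sorted cells after DMBA/TPA. The mice carried alterations of Srsf2, which encodes a splicing factor of the SR family. Krt14CreER, a recombinase that tamoxifen activates in cells expressing keratin 14, acted on the allele, so other cells of the skin were not its target.

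The knockout set of whole back skin held 3 SRSF2-KO, Cre positive mice each at 4, 10 and 12 days of treatment, and 3 Cre negative controls of the same allele set, 2 of them at 12 days (replicates 1 and 2) and 1 at 10 days (replicate 3). The same 3 controls serve all 3 times, so the 3 comparisons with control share them. The P95H set, a point mutation of the same gene, held 2 SRSF2-P95H mice against 5 controls at 12 days and 4 P95H mice against 3 controls at 28 days, with Cre positive mutants, Cre negative controls and the wild type form of the tdTomato reporter throughout. All of these mice, controls included, had 4-hydroxy tamoxifen on the skin every other day, and in the knockout set the tdTomato alleles differed between mice (wild type, heterozygous or homozygous). Reporter positive cells were sorted from 3 SRSF2-KO and 3 control mice at 10 days, and from 3 mice heterozygous for P95H and 3 controls after 3x tamoxifen injection and 20 weeks on DMBA/TPA, the mutagen and promoter pair that induces skin tumours. The sources used here give neither the Cre status of the mice behind the sorted controls nor the ages of the mice. Libraries are labelled as biological replicates.

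During mitosis, cyclin B with its kinase CDK1 starts chromosome condensation and spindle assembly, and kinetochores join each chromosome to the spindle. The spindle checkpoint holds the cell until every kinetochore is attached, after which the anaphase promoting complex with CDC20 marks securin and cyclin B for destruction, separase opens cohesin, and the cell divides. In skin, dividing cells sit mainly in the basal layer of the epidermis and, while hair grows, in the matrix of the hair follicle. Transcripts of these genes build up together in the late part of the cell cycle, through a promoter element called the cell cycle genes homology region and through CCAAT boxes, which the MuvB complexes and NF-Y bind.

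Depth was estimated at 24.97 to 36.8 M reads (M for mega) per library in the whole-skin knockout set, 7.39 to 32.3 M in the P95H set, 45.9 to 92.8 M in sorted knockout cells and 10.98 to 17.2 M after DMBA/TPA. Whole-skin values are given in steps, the smallest unit of a library's values, which stand in for reads scaled between libraries, and sorted values are the deposited normalised counts. All 8 basal keratinocyte markers were measured in every table, with summed levels of 181940 to 348765 steps in the knockout set and 1209490 to 2661400 normalised counts in its sorted cells, where 6 fibroblast markers summed to 231 to 1928. In sorted cells Srsf2 was at 3659, 3359 and 1900 normalised counts in KO cells, against 17560, 18190 and 20595 in control cells. In whole skin Srsf2 overlapped between groups, at 2303 to 3687 steps in the 9 KO libraries and 2885, 2879 and 2996 in the controls. Replicate 2 of the sorted KO cells stood apart, with 52.2% of its reads on the single transcript Gm26917. Results without it are given for the median and calls of the mitosis genes, and for Mki67, Bub1, Kif18a, Ttk and Spc24. Other results on sorted KO cells include it.

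The promoters of these genes shared sequence. The genes were chosen by name, not by sequence, but the features counted below were already known in genes of the late cell cycle. The shares are therefore a description and not a test. Of the 59 genes, 49 matched an entry in the RefSeq promoter table (GRCm38.p6). In the window from 100 bases before to 50 bases after the start of the gene, TTTGAA or TTTAAA stood on either strand in 36 of the 49 (73.5%), against 12.8% of 32817 promoter windows of the same length. CCAAT stood on either strand in 36 of 49 windows of 300 bases (73.5%), against 37.4% of all such windows. Both features, CCAAT in the 300 bases and TTTGAA or TTTAAA in the 150 bases, stood in 32 of 49 (65.3%), against 4.98%. A match of these letters is a description of the window, not a shown binding site. Windows of 150 bases are printed 5′ to 3′ on the strand of the gene for 5 members that the results below turn on, with TTTGAA or its other strand TTCAAA, the palindrome TTTAAA, and CCAAT or its other strand ATTGG in capitals. They are chr10:69352863-69353012 (Cdk1), chr9:70421505-70421654 (Ccnb2), chr4:118437294-118437443 (Cdc20) and chr2:127831810-127831959 (Bub1), all on the minus strand, and chr9:83834589-83834738 (Ttk) on the plus strand.
Cdk1: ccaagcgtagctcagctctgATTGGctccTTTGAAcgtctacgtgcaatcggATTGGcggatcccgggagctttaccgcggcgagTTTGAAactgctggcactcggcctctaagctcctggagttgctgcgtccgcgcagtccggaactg
Ccnb2: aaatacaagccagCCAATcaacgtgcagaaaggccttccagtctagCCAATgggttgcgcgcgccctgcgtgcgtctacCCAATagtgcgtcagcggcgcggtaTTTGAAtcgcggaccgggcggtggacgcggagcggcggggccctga
Cdc20: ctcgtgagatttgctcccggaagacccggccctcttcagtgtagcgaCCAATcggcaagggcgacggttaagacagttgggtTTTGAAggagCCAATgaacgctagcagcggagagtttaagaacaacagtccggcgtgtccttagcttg
Bub1: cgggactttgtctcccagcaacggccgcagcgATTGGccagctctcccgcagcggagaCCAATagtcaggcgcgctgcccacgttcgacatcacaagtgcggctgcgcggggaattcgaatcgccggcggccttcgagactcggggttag
Ttk: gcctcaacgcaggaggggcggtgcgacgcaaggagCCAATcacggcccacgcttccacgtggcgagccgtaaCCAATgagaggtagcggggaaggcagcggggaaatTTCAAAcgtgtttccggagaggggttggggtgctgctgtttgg
The windows of Cdk1, Ccnb2 and Cdc20 hold both features. That of Bub1 holds CCAAT on each strand and neither TTTGAA nor TTTAAA, and that of Ttk holds both features. In both whole-skin sets the level of Ttk moved with those of the other members less than that of any other member.

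At 10 days after the start of treatment, 40 of the 59 mitosis genes rose in KO skin and none fell (limma, adjusted p under 0.05), where 13.3% of all genes tested rose. The rises ran from 1.30-fold for Bub3 to 3.00-fold for Cdca5, and the median log2 difference of the 59 was 1.09, against -0.02 for all genes. In 53 of the 59 every KO library lay above every control library, which held for 22% of all genes. All 59 differences were above 0. In bulk skin, more dividing cells and more of these transcripts per cell cannot be told apart.

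**Figure D1:**
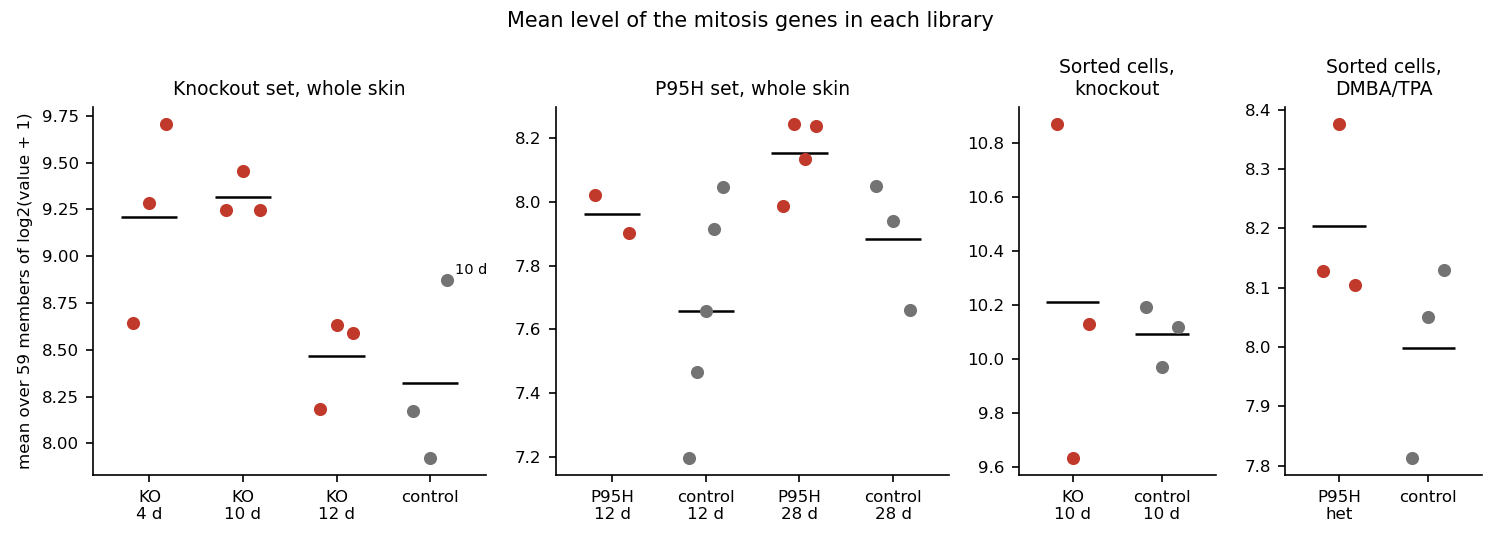
Mean log2 level of the 59 mitosis genes in each library, in 4 panels for the 4 tables. Points are libraries, red for KO or P95H and grey for control, and bars give the mean of each group. In the knockout set the 10-day KO libraries lie at 9.25, 9.46 and 9.25 and the controls at 8.17, 7.92 and 8.87, with the 10-day control the highest of the 3.

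Of the 10 genes of mitotic entry, 8 rose, with a median log2 difference of 1.22 over the 10. Cdk1, the kinase that starts mitosis, was at 749, 785 and 740 steps in KO skin at 10 days, against 263, 202 and 476 in control skin. Ccnb1, which encodes its partner cyclin B1, was at 861, 784 and 844 steps in KO skin, against 315, 246 and 530 in control skin. In both genes the 3 KO libraries lay close together and above the highest control, replicate 3. The log2 differences were 1.36 (SE 0.37, adjusted p = 0.022, limma) for Cdk1 and 1.26 (SE 0.34, adjusted p = 0.023) for Ccnb1. Cdc25c, the phosphatase that activates CDK1, was at 233, 298 and 234 steps in KO skin, against 121, 85 and 150 in control skin, a log2 difference of 1.13 (SE 0.26, adjusted p = 0.013). Foxm1, a transcription factor that acts on many of these promoters, rose by 0.96 on the log2 scale (SE 0.30, adjusted p = 0.038), and Plk1, a kinase of centrosome maturation and mitotic entry, by 1.29 (SE 0.43, adjusted p = 0.047). Melk, a kinase gene expressed in dividing cells, rose by 1.31 (SE 0.30, adjusted p = 0.013). Cdca3, which encodes a trigger of mitotic entry, was at 502, 707 and 619 steps in KO skin, against 282, 248 and 547 in control skin, with 1 KO library below control replicate 3 and a log2 difference of 0.84 (SE 0.32, adjusted p = 0.079).

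Of the 5 spindle checkpoint genes, 3 rose. Bub1, a checkpoint kinase at the kinetochore, was at 225, 247 and 257 steps in KO skin at 10 days, against 68, 79 and 132 in control skin. Mad2l1, whose product inhibits CDC20, was at 360, 324 and 356 steps in KO skin, against 152, 116 and 209 in control skin. Neither gene overlapped between the groups, and the log2 differences were 1.43 for Bub1 (SE 0.34, adjusted p = 0.015, limma) and 1.16 for Mad2l1 (SE 0.26, adjusted p = 0.012). Bub3, which brings BUB1 to the kinetochore and is also expressed outside mitosis, had the smallest rise that passed, 0.38 (SE 0.12, adjusted p = 0.041). Ttk, the kinase MPS1 at the top of the checkpoint, was at 296, 250 and 280 steps in KO skin, against 343, 214 and 273 in control skin. The groups overlapped in Ttk, and the log2 difference was 0.02 (SE 0.21, adjusted p = 0.96).

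Of the 8 genes of chromosome structure, 7 rose, with a median of 1.12. Mki67, which encodes the coat protein of mitotic chromosomes used as a marker of proliferation, was at 10650, 12577 and 8689 steps in KO skin at 10 days, against 3026, 3062 and 7365 in control skin. The lowest KO library was only a little above control replicate 3, and the log2 difference was 1.36 (SE 0.39, adjusted p = 0.029, limma). Top2a, the topoisomerase that untangles sister chromatids, was at 3319, 3754 and 3250 steps in KO skin, against 1365, 993 and 2087 in control skin (log2 difference 1.28, SE 0.31, adjusted p = 0.016). Ncapg, a condensin I subunit, rose by 1.45 on the log2 scale (SE 0.41, adjusted p = 0.026). Cdc25c and Ncapg overlap genes on the other strand, Gm3550 over 12.7% and Lcorl over 13.4% of their exon length, and as the sources used here do not give the strand setting of the counting, these values are uncertain. Of the 7 genes of the centromere and kinetochore, 5 rose. Ndc80, the microtubule-binding subunit of the outer kinetochore, was at 129, 153 and 155 steps in KO skin, against 58, 58 and 96 in control skin, with no overlap and a log2 difference of 1.07 (SE 0.28, adjusted p = 0.020). Cenpf, a large protein of the outer kinetochore, was at 1389, 1689 and 1446 steps in KO skin, against 791, 591 and 1155 in control skin, again with no overlap (0.88, SE 0.28, adjusted p = 0.038). Cenpe, the kinetochore motor that brings chromosomes to the spindle equator, rose by 1.32 (SE 0.37, adjusted p = 0.025), and Cdca2, which encodes a phosphatase subunit on anaphase chromosomes, by 1.12 (SE 0.27, adjusted p = 0.016).

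Of the 5 genes of anaphase and sister separation, 3 rose. Cdca5, or sororin, which protects cohesion until anaphase, was at 309, 374 and 310 steps in KO skin at 10 days, against 76, 88 and 194 in control skin. Cdc20, the activator of the anaphase promoting complex, was at 1074, 1413 and 1220 steps in KO skin, against 398, 407 and 746 in control skin. In both genes the KO libraries lay above all controls, with log2 differences of 1.59 (SE 0.42, adjusted p = 0.022, limma) for Cdca5 and 1.31 (SE 0.33, adjusted p = 0.017) for Cdc20. Pttg1, or securin, the inhibitor of separase, overlapped between the groups, at 174, 200 and 172 steps in KO skin against 215, 94 and 178 in control skin, with a log2 difference of 0.24 (SE 0.26, adjusted p = 0.53).

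Of the 13 spindle motors and microtubule proteins, 9 rose, with a median of 1.13. Kif11, the motor that pushes the spindle poles apart, was at 967, 1009 and 956 steps in KO skin at 10 days, against 396, 283 and 615 in control skin, with no overlap (log2 difference 1.25, SE 0.32, adjusted p = 0.018, limma). Kif18a, a kinesin that limits chromosome oscillation, was at 141, 116 and 135 steps in KO skin against 112, 64 and 116 in control skin, with a log2 difference of 0.46 (SE 0.27, adjusted p = 0.23). Aspm, a spindle pole protein, was at 982, 946 and 927 steps in KO skin, against 632, 452 and 869 in control skin, with no overlap but a log2 difference that did not pass, 0.60 (SE 0.26, adjusted p = 0.11). Of the 6 genes of the aurora kinases and the chromosomal passenger complex, 4 rose, among them Aurkb, the kinase of that complex, by 1.19 (SE 0.33, adjusted p = 0.024). Birc5, or survivin, its partner, differed by 0.95 (SE 0.33, adjusted p = 0.056). Of the 5 cytokinesis genes 1 rose, Ect2, the exchange factor that activates RhoA at the division plane, and Kif23 and Anln, a kinesin and a scaffold of the cleavage furrow, differed by 0.72 (SE 0.27, adjusted p = 0.069) and 0.24 (SE 0.19, adjusted p = 0.36).

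**Figure D2:**
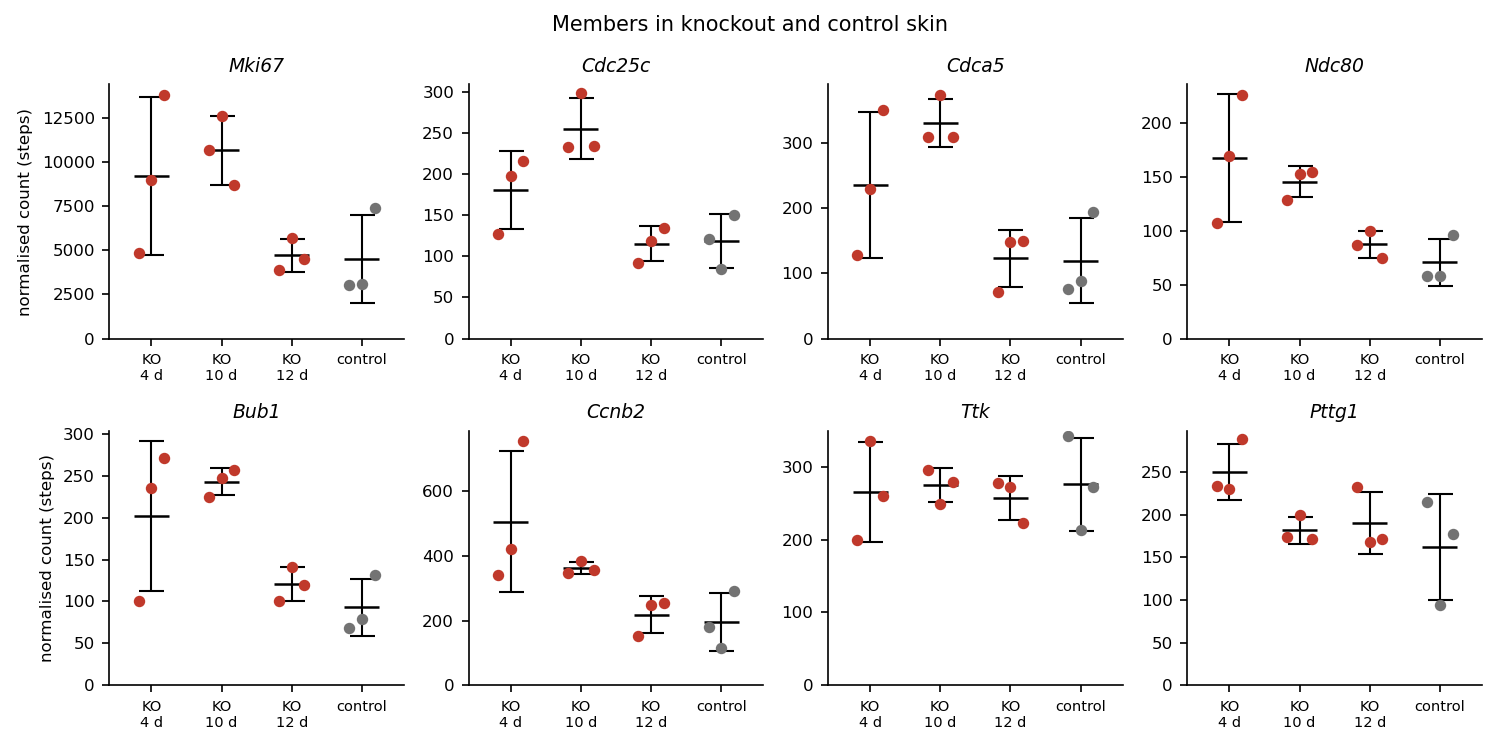
Level in steps of 8 mitosis genes in whole back skin, with KO at 4, 10 and 12 days in red and control in grey; points are libraries and bars give the mean and SD of each group of 3. Ttk runs from 200 to 343 steps over all 12 libraries with every group overlapping, while Bub1 at 10 days lies at 225 to 257 steps in KO skin and at 68 to 132 in control skin.

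Markers of the growing hair follicle moved with the mitosis genes at 10 days. All 17 measured rose in KO skin, with a median log2 difference of 6.31, and their summed level was 4216750 to 5586280 steps in KO skin against 5832 to 217299 in control skin. All 6 melanocyte markers rose as well, with sums of 23663 to 35992 steps in KO skin against 2375 to 5467 in control skin. No marker of these 2 lists was at the floor of its library in either group. Of the 8 basal keratinocyte markers 3 fell and none rose. The part of these markers in the rise of the mitosis genes was not tested. The only control taken at 10 days, replicate 3, had the highest mean level of the 59 genes among controls. The 3 KO libraries lay above that control in 53 of the 59, with no share of all genes counted beside it. The median difference was 0.47 on the log2 scale, from -0.02 for Anln to 0.87 for Bub1. These differences have no test because the control is a single library.

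The count at 10 days depended on single libraries and on the scaling. Without control replicates 2, 1 and 3 in turn it was 0, 7 and 55, and 17, 4 and 16 without KO replicates 1, 2 and 3. With libraries scaled to equal totals, which moved the median of all genes by -0.34, it was 17, and the log2 differences of Ttk, Anln and Pttg1 turned to -0.30, -0.076 and -0.075.

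At 4 days 15 of the 59 rose in KO skin and none fell (limma, adjusted p under 0.05), where 7.21% of all genes rose. Over the 59 the median log2 difference was 0.90, and 58 of 59 differences were above 0. An unadjusted p under 0.05 was reached by 51 members, and by 26.8% of all genes. In 11 members the groups did not overlap, with KO above control, as in 16% of all genes. Cytokinesis genes passed in 4 of 5 cases, genes of the passenger complex in 3 of 6, spindle motors and microtubule proteins in 3 of 13, kinetochore genes in 2 of 7, anaphase genes in 1 of 5, genes of chromosome structure in 1 of 8 and mitotic entry genes in 1 of 10. No checkpoint gene passed. The difference between roles was not tested.

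Kif23, the kinesin of the central spindle, was at 671, 1044 and 1407 steps in KO skin at 4 days, against 463, 313 and 632 in control skin. Ndc80 was at 107, 169 and 226 steps in KO skin, against 58, 58 and 96 in control skin. Ccnb2, which encodes cyclin B2, was at 341, 423 and 755 steps in KO skin, against 179, 115 and 293 in control skin. In these 3 genes every KO library exceeded every control, and the KO libraries spread widely, with replicate 3 the highest in each. The log2 differences were 1.14 for Kif23 (SE 0.27, adjusted p = 0.023, limma), 1.21 for Ndc80 (SE 0.28, adjusted p = 0.021) and 1.39 for Ccnb2 (SE 0.35, adjusted p = 0.030), the last being the largest of the 15. Incenp, the scaffold of the passenger complex, rose by 0.98 (SE 0.24, adjusted p = 0.026) and Anln by 0.66 (SE 0.19, adjusted p = 0.044). Cenpa, the histone variant of the centromere, rose by 0.89 (SE 0.22, adjusted p = 0.028), Ncaph by 0.96 (SE 0.25, adjusted p = 0.031), Aurkb by 1.22 (SE 0.33, adjusted p = 0.037), Birc5 by 1.22 (SE 0.33, adjusted p = 0.038) and Aspm by 0.88 (SE 0.26, adjusted p = 0.048).

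Mki67 spanned 4824, 8970 and 13780 steps in KO skin at 4 days, against 3026, 3062 and 7365 in control skin, so that the groups overlapped, with a log2 difference of 1.04 (SE 0.39, adjusted p = 0.11, limma). Cdk1 was at 378, 677 and 970 steps in KO skin, against 263, 202 and 476 in control skin, with a log2 difference of 1.10 (SE 0.37, adjusted p = 0.077). Plk1 differed by 1.35 (SE 0.43, adjusted p = 0.064) and Cdc20 by 0.90 (SE 0.33, adjusted p = 0.10). Ttk was at 200, 337 and 261 steps in KO skin, against 343, 214 and 273 in control skin, a log2 difference of -0.06 (SE 0.21, adjusted p = 0.88). The mean log2 level of the 59 genes was 8.64, 9.28 and 9.71 in the KO libraries at 4 days, against 8.17, 7.92 and 8.87 in the controls, so KO replicate 1 lay within the range of the controls.

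Other markers moved at 4 days than at 10 days. All 8 fibroblast markers and all 8 macrophage markers rose, with sums of 1534420 to 3200000 against 357529 to 830278 steps and of 82436 to 157693 against 30808 to 46970 steps, KO skin against control skin in each case. Of the 17 markers of the growing hair follicle 1 fell and none rose, with sums of 1563 to 29822 steps in KO skin against 5832 to 217299 in control skin, and 1 marker at the floor in KO replicate 1. Of the 8 basal keratinocyte markers 1 fell. Their part in the rise of the mitosis genes was not tested. The count of 15 was 0 without KO replicate 3, control replicate 1 or control replicate 2, 5 without KO replicate 2, 37 without KO replicate 1 and 43 without control replicate 3. It was 8 with libraries scaled to equal totals or with no filter on the mean, and 0 when only these groups entered the fit or when the values were used as deposited.

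At 12 days no member passed in either direction (limma), and 1.28% of all genes passed. No member had an unadjusted p under 0.05, where 19.7% of all genes did. Differences had a median of 0.14 on the log2 scale, running from -0.19 for Espl1 (SE 0.23, adjusted p = 0.69), which encodes separase, to 0.46 for Hmmr (SE 0.32, adjusted p = 0.45), a microtubule protein of the spindle poles. Mki67 was at 3887, 5712 and 4524 steps in KO skin at 12 days, against 3026, 3062 and 7365 in control skin, all 3 KO values lying within the range of the controls. Its log2 difference was 0.19 (SE 0.39, adjusted p = 0.84). Against the 2 controls taken at 12 days alone the median difference of the 59 was 0.45, from -0.08 for Ttk to 0.75 for Hmmr. In 25 of 59 all 3 KO libraries lay above both controls, with no share of all genes counted beside it. Without control replicate 3, which leaves those 2, limma called none and 4 members had an unadjusted p under 0.05. Without control replicate 2 the median of the 59 turned to -0.07.

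Among the comparisons of KO times, the mitosis genes passed most often between 12 and 10 days. The controls do not enter the log2 difference of this comparison, but they are part of the single fit that gave its SE and p. At 12 days 33 of the 59 were lower than at 10 days and none higher (limma, adjusted p under 0.05), where 18.3% of all genes were lower. In 56 of the 59 every 12-day library lay below every 10-day library, as did 24.7% of all genes, and the median log2 difference was -0.92. The genes that fell included 7 of 10 of mitotic entry, 4 of 5 of anaphase, 5 of 8 of chromosome structure, 6 of 13 spindle motors and microtubule proteins, 4 of 7 kinetochore genes, 3 of 6 of the passenger complex, 3 of 5 checkpoint genes and 1 of 5 of cytokinesis.

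Cdc25c was at 92, 119 and 134 steps at 12 days, against 233, 298 and 234 at 10 days, with no overlap (log2 difference -1.15, SE 0.26, adjusted p = 0.0057, limma). Cdc20 was at 321, 598 and 685 steps at 12 days, against 1074, 1413 and 1220 at 10 days, again with no overlap (-1.27, SE 0.33, adjusted p = 0.011). Cdca5 fell furthest, with 72, 148 and 149 steps at 12 days against 309, 374 and 310 at 10 days (-1.49, SE 0.42, adjusted p = 0.018). Bub1 at 100, 141 and 120 steps at 12 days lay below its 225, 247 and 257 steps at 10 days. Espl1 fell by 0.85 on the log2 scale (SE 0.23, adjusted p = 0.014), Foxm1 by 1.10 (SE 0.30, adjusted p = 0.015) and Mki67 by 1.18 (SE 0.39, adjusted p = 0.036). Ect2 fell by 0.93 (SE 0.23, adjusted p = 0.0098), Kifc1, a minus-end spindle motor, by 1.30 (SE 0.33, adjusted p = 0.011), Nek2, a kinase of centrosome separation, by 1.27 (SE 0.34, adjusted p = 0.013), and Kif18b, a microtubule-shortening kinesin, by 1.24 (SE 0.35, adjusted p = 0.016). Kifc1 has a near-identical copy, Kifc5b, listed at 152 to 503 steps in this set, so its value is uncertain. Aspm and Cdca3 did not overlap between the times, at -0.66 (SE 0.26, adjusted p = 0.061) and -0.85 (SE 0.32, adjusted p = 0.061). Ttk, Anln and Pttg1 differed by -0.10, -0.13 and 0.06, with adjusted p of 0.74, 0.62 and 0.88 in the same test.

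The 17 hair follicle markers all fell between the same times, with sums of 973 to 37165 steps at 12 days against 4216750 to 5586280 at 10 days and 1 marker at the floor at 12 days, and so did the 6 melanocyte markers, with sums of 1643 to 2884 against 23663 to 35992 steps. Their part in the fall of the mitosis genes was not tested. The count of 33 was 15, 7 and 13 without the 10-day replicates 1, 2 and 3, 5 without the 12-day replicate 1 and 25 and 22 without the 12-day replicates 2 and 3. It was 9 with libraries scaled to equal totals, which moved the median of all genes by 0.35, and 50 when only these 2 groups entered the fit.

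Between 10 and 4 days 2 members had an unadjusted p under 0.05 (limma), against 49.4% of all genes. No member passed and the median log2 difference was 0.12, although 40.3% of all genes passed. The count was 3, all lower, with libraries scaled to equal totals, 2, both higher, with the values as deposited, and 1 without the 4-day replicate 1, where the median turned to -0.12, or with only these groups in the fit. Between 12 and 4 days no member passed either, with 0.144% of all genes passing, but the median log2 difference was -0.81. An unadjusted p under 0.05 was reached by 37 members, and by 16.1% of all genes. In 25 members every 12-day library lay below every 4-day library, as in 9.55% of all genes. Ccnb2 showed the largest of these differences, with 151, 247 and 254 steps at 12 days against 341, 423 and 755 at 4 days (-1.17, SE 0.35, adjusted p = 0.17). The smallest adjusted p values were those of Espl1 (-1.01, SE 0.23, adjusted p = 0.096) and Ect2 (-1.001, SE 0.23, adjusted p = 0.0997).

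**Figure D3:**
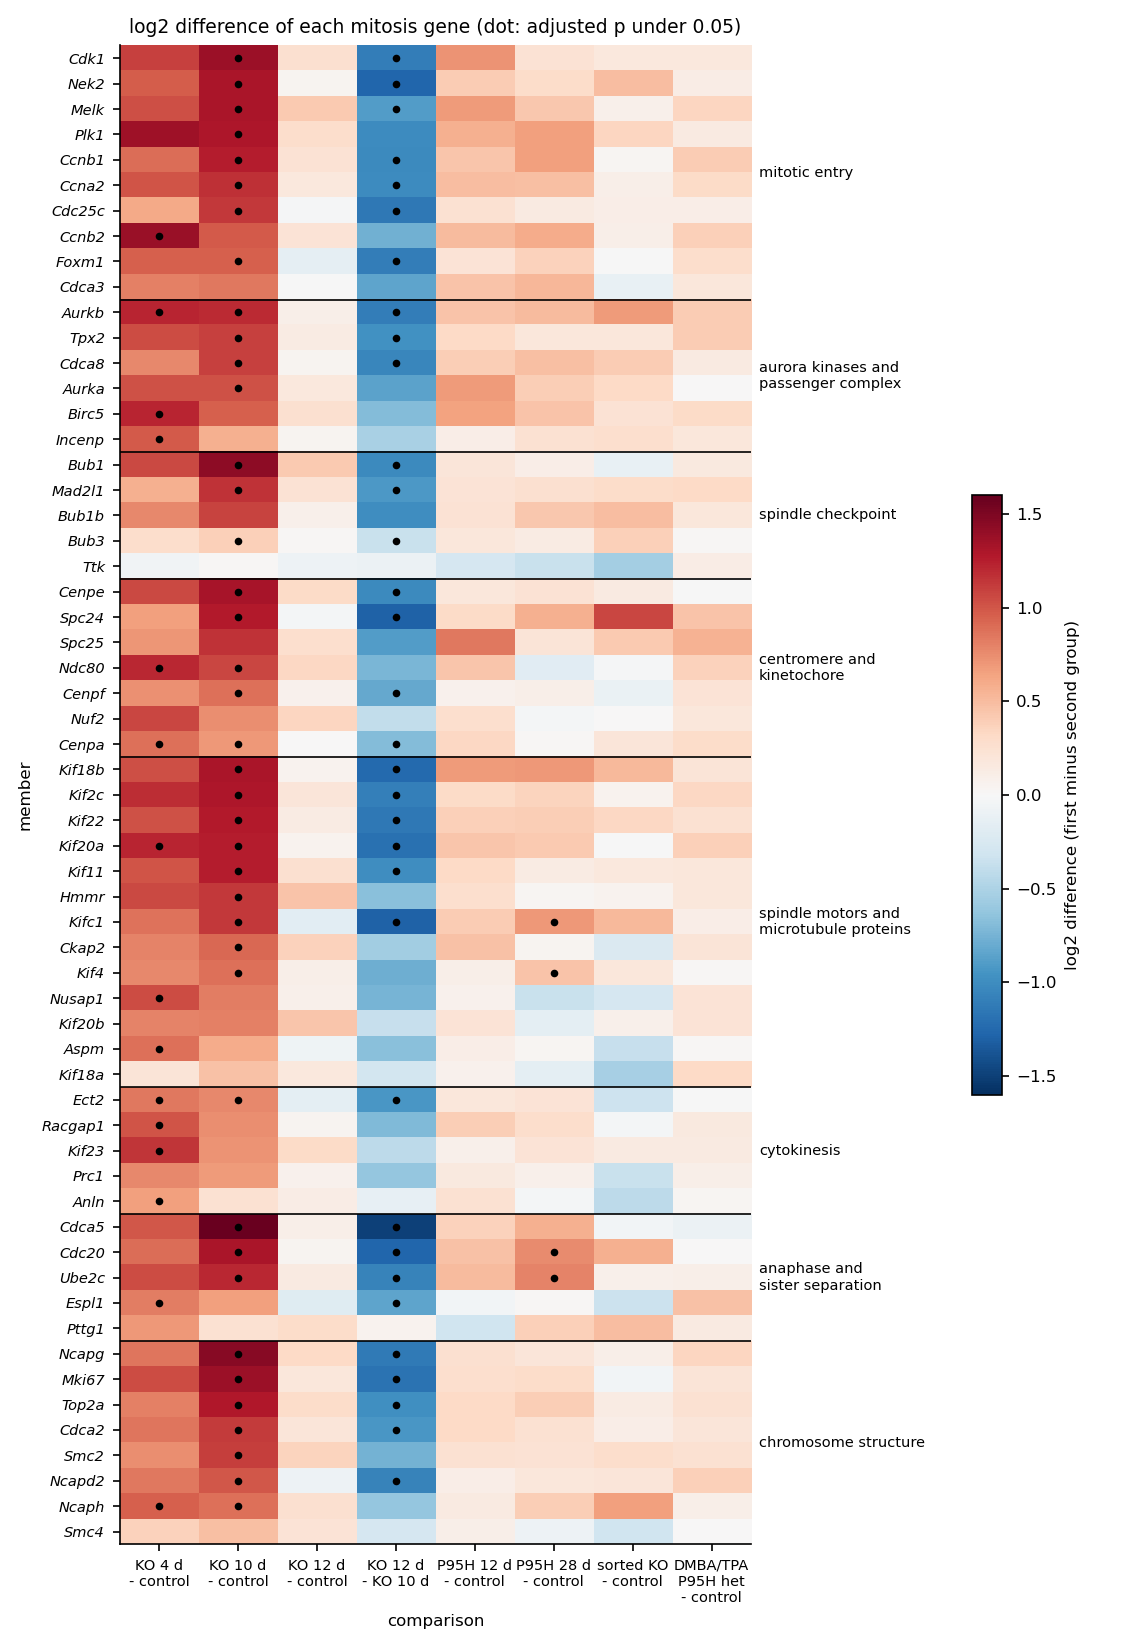
Log2 difference of each of the 59 mitosis genes, ordered by role, in 8 comparisons; red is higher and blue is lower in the group named first, and a dot marks an adjusted p under 0.05 in limma. The columns hold 40 dots for KO at 10 days against control, 15 for KO at 4 days, 33 for KO at 12 against 10 days, 4 for P95H at 28 days and none for the sorted cells.

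Most members moved as a block over the 12 whole-skin libraries of the knockout set. The correlation of each gene's log2 level with the mean of the other members over these 12 libraries had a median r of 0.96, and 51 of 59 exceeded 0.9. Ccna2, or cyclin A2, and Tpx2, the spindle assembly factor that activates Aurora A, were the most alike, at 0.996. Ccna2 overlaps Exosc9 on the other strand over 12.5% of its exon length, so its value is uncertain. Ttk at 0.20, Pttg1 at 0.47, Kif18a at 0.69, Anln at 0.80 and Smc4, a core subunit of condensins, at 0.83 were the least alike. The libraries share groups, depth and tissue makeup, so these values describe likeness over the samples only. No share of all genes is given beside them. Over the 14 libraries of the P95H set the median was 0.87, with Ttk again the lowest at 0.09 and Pttg1 and Espl1 at 0.26. In the sorted knockout set the median was 0.91, with 31 of 59 over 0.9 and a lowest r of -0.07. After DMBA/TPA the median was 0.85, with 20 of 59 over 0.9 and a lowest r of -0.32.

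The share of members called at 10 days was set beside the promoter matches described above, as a description. Of the 36 members with TTTGAA or TTTAAA in the window of 150 bases 24 rose, with a median log2 difference of 1.08, and of the 13 with neither 8 rose, with a median of 0.95. Per length of exon, Mki67 had the highest level, at 1057 steps per kb in KO skin at 10 days and 446 in control skin, and Cdc20 followed in control skin, at 661 in KO skin and 277 in control skin. Kif18a had the lowest, at 13.3 steps per kb in KO skin and 9.90 in control skin.

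In P95H skin at 28 days 4 of the 59 rose and none fell (limma, adjusted p under 0.05), where 6.7% of all genes rose. The 4 were Cdc20, Ube2c, Kifc1 and Kif4, with folds of 1.37 to 1.74. Called members thus made up about the same share of the 59 as called genes did of all genes, and the 4 are given as a description. The median log2 difference of the 59 was 0.25, and 21 had an unadjusted p under 0.05, as did 29.1% of all genes. In 21 members every P95H library lay above every control, as in 14.5% of all genes. By role, 2 of the 5 anaphase genes and 2 of the 13 spindle motors passed. Among the 10 genes of mitotic entry none passed, with a median of 0.46.

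Cdc20 was at 493, 399, 329 and 385 steps in P95H skin at 28 days, against 262, 259 and 191 in control skin. Ube2c, the ubiquitin-conjugating enzyme of the anaphase promoting complex, was at 142, 161, 156 and 160 steps in P95H skin, against 103, 85 and 79 in control skin. Neither gene overlapped between the groups, and the log2 differences were 0.76 (SE 0.19, adjusted p = 0.020, limma) for Cdc20 and 0.80 (SE 0.23, adjusted p = 0.037) for Ube2c. Kifc1 was at 193, 184, 174 and 174 steps in P95H skin, against 131, 112 and 95 in control skin (0.69, SE 0.19, adjusted p = 0.030). Kif4, the chromosome-bound kinesin KIF4A, was at 234, 338, 262 and 325 steps in P95H skin, against 217, 209 and 200 in control skin (0.46, SE 0.14, adjusted p = 0.046). The groups did not overlap in either. The copy of Kifc1, Kifc5b, is listed at 61 to 103 steps in this set, and Ube2c and Kif4 overlap genes on the other strand, Tnnc2 over 22.8% and Pdzd11 over 15.1% of their exon length, so that these 3 values are uncertain.

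**Figure D4:**
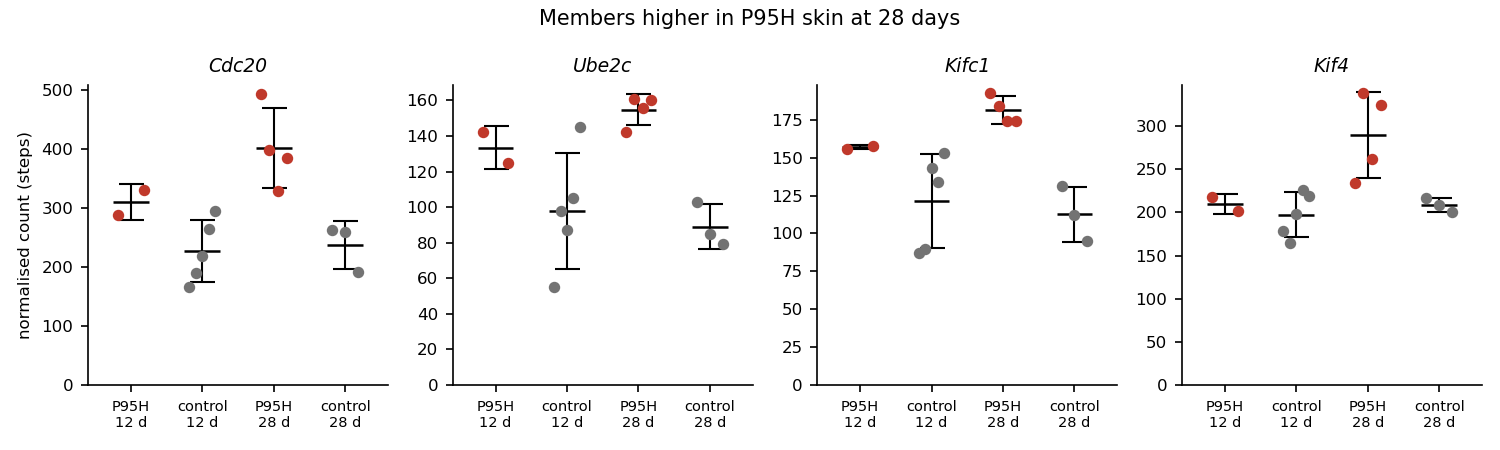
Level in steps of Cdc20, Ube2c, Kifc1 and Kif4 in whole back skin of the P95H set at 12 and 28 days, P95H in red and control in grey; points are libraries and bars give the mean and SD of each group. At 28 days every P95H point lies above every control point in all 4 genes.

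Ccnb1 and Plk1 came close to the threshold at 28 days, with log2 differences of 0.65 each (SE 0.21, adjusted p = 0.056, limma). Next were Kif18b at 0.69 (SE 0.23, adjusted p = 0.062) and Cdca8, or borealin, of the passenger complex, at 0.48 (SE 0.18, adjusted p = 0.088). Ccnb1 was at 488, 424, 393 and 460 steps in P95H skin, against 313, 313 and 222 in control skin, without overlap. Mki67 was at 1814, 3132, 2901 and 3065 steps in P95H skin, against 2404, 2264 and 1885 in control skin. P95H replicate 1, the library with the lowest estimated depth, was below all controls and the other 3 were above them, with a log2 difference of 0.29 (SE 0.21, adjusted p = 0.37). Ttk was at 257, 318, 364 and 356 steps in P95H skin, against 452, 361 and 421 in control skin, a log2 difference of -0.35 (SE 0.16, adjusted p = 0.16), and Nusap1, a microtubule-bundling protein, also differed by -0.35 (SE 0.27, adjusted p = 0.40). Of 7 markers of differentiated keratinocytes 3 rose and 1 fell, with sums of 169838 to 226975 steps in P95H skin against 120414 to 149833 in control skin, and no hair follicle marker of 16 passed. Their part in these rises was not tested. The count of 4 was 0 without control replicate 4, 1 without control replicate 2 or P95H replicate 2, and 2 without control replicate 1 or P95H replicate 4. It was 9 when only these groups entered the fit, and 2 with the values as deposited or with no filter on the mean.

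In P95H skin at 12 days, with 2 mutant libraries, no member passed (limma), and 6.93% of all genes passed. Unadjusted p lay under 0.05 in 11 members, against 22.3% of all genes. The median log2 difference was 0.30, and in 11 members both P95H libraries lay above all 5 controls, as in 13.7% of all genes. Aurka, the kinase of the spindle poles, had the smallest adjusted p, with 140 and 146 steps in P95H skin against 67, 68, 89, 111 and 125 in control skin (log2 difference 0.68, SE 0.23, adjusted p = 0.093). Spc25, a subunit of the NDC80 complex, had the largest difference, with 103 and 83 steps in P95H skin against 37, 48, 35, 76 and 74 in control skin (0.84, SE 0.30, adjusted p = 0.11). Neither overlapped between the groups. Melk, Kif18b and Cdk1 differed by 0.69 (SE 0.24, adjusted p = 0.11), 0.68 (SE 0.25, adjusted p = 0.12) and 0.72 (SE 0.26, adjusted p = 0.12). Pttg1, at 144 and 152 steps in P95H skin, lay within the 136, 190, 236, 200 and 176 of control skin (-0.32, SE 0.17, adjusted p = 0.30). Without control replicate 5 the count was 2.

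The P95H effect at 28 days minus that at 12 days passed for no member (limma), with a median difference of -0.01 and 0.0109% of all genes passing. Unadjusted p lay under 0.05 in 2 members, against 8.21% of all genes. Among controls of this set, those at 28 days minus those at 12 days, no member passed and 0.00546% of all genes passed. The median log2 difference was 0.23, and 9 members, against 11.7% of all genes, had an unadjusted p under 0.05. The mean log2 level of the 59 genes was 7.99, 8.24, 8.13 and 8.24 in P95H skin at 28 days, against 8.05, 7.94 and 7.66 in its controls. At 12 days it was 8.02 and 7.90 in P95H skin, against 7.20, 7.47, 7.66, 7.91 and 8.05 in its controls. The control libraries at 12 days spread widely, and the highest of them exceeded both P95H libraries.

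In sorted KO cells at 10 days no member passed in either direction (limma), and 0.0394% of all genes passed. Unadjusted p was under 0.05 for 2 members and for 17.2% of all genes. edgeR's quasi-likelihood test and DESeq2 on the recovered reads also called none, with 3 and 6 members at an unadjusted p under 0.05. The median log2 difference was 0.10, and in 7 members every KO library lay above every control, against 12.8% of all genes. Spc24, a subunit of the NDC80 complex, was at 703, 1079 and 385 normalised counts in KO cells, against 374, 290 and 292 in control cells, with no overlap (1.07, SE 0.39, adjusted p = 0.24). Ncaph, the kleisin of condensin I, was at 1831, 1171 and 1330 in KO cells, against 995, 791 and 927 in control cells, with no overlap (0.65, SE 0.24, adjusted p = 0.24). Mki67 was at 22087, 7674 and 13820 in KO cells, against 14330, 12407 and 14460 in control cells, so that 1 KO library lay above, 1 below and 1 within the controls (-0.04, SE 0.36, adjusted p = 0.96).

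The 3 sorted KO libraries differed widely from each other. Relative to the control mean, replicate 1 was higher in 59 of 59 members, with a median log2 difference of 0.79, from 0.09 for Espl1 to 1.44 for Plk1. Replicate 2, the library with Gm26917 at 52.2% of reads, was higher in 13 of 59, with a median of -0.53, from -2.17 for Kif18a to 1.77 for Spc24. Replicate 3 was higher in 38 of 59, with a median of 0.06. Bub1 shows this spread, at 1125, 137 and 458 normalised counts in KO cells against 517, 376 and 464 in control cells (-0.12, SE 0.68, adjusted p = 0.94). Ttk and Kif18a, at -0.54 (SE 0.51, adjusted p = 0.59) and -0.53 (SE 0.63, adjusted p = 0.67), rested on replicate 2 as well. Without replicate 2 the median of the 59 was 0.44 with 7 members at an unadjusted p under 0.05 and none called, Mki67, Bub1, Kif18a and Ttk turned to 0.35, 0.68, 0.29 and 0.09, and Spc24 was at 0.72. Without replicate 1 the median was -0.23. With all libraries scaled to equal totals, which moved the median of all genes by -0.38, the median of the 59 was -0.24. In sorted cells no hair follicle marker of 14 passed, with sums of 2552 to 3938 normalised counts in KO cells against 1904 to 4314 in control cells.

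**Figure D5:**
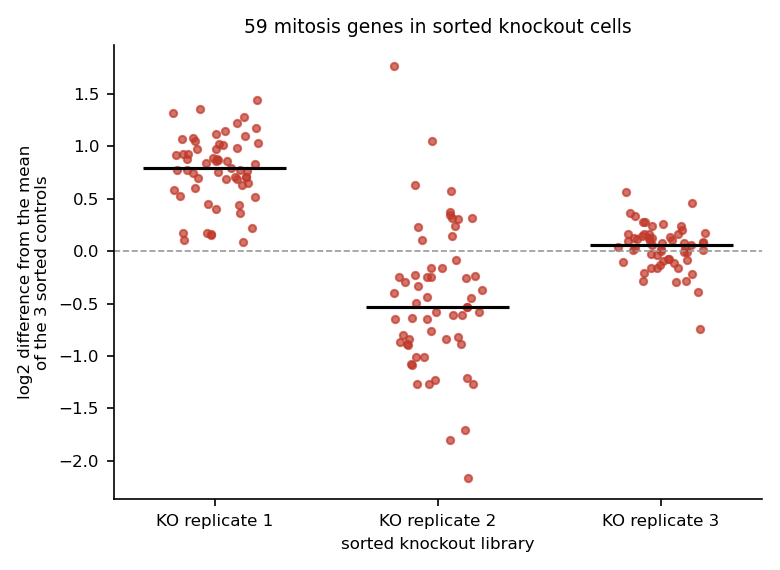
Log2 difference of each of the 59 mitosis genes in each sorted KO library at 10 days from the mean of the 3 sorted control libraries; every point is a gene. Replicate 1 lies above 0 in 59 of 59 genes, replicate 2 in 13 and replicate 3 in 38.

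After DMBA/TPA no member passed in sorted cells of P95H heterozygous mice (limma), and 0% of all genes passed. Among members 12 had an unadjusted p under 0.05, beside 15.9% of all genes. edgeR's quasi-likelihood test and DESeq2 called no member, with 12 and 10 at an unadjusted p under 0.05. The median log2 difference was 0.19, 56 of 59 differences were above 0, and in 13 members every P95H library lay above every control, as in 11% of all genes. Espl1 had the smallest adjusted p, with 390, 396 and 330 normalised counts in P95H cells against 251, 283 and 272 in control cells, without overlap (0.46, SE 0.12, adjusted p = 0.15). Spc25 had the largest difference, with 98.6, 91.7 and 102 in P95H cells against 51.9, 78.0 and 69.8 in control cells, without overlap (0.56, SE 0.19, adjusted p = 0.21). Mki67 overlapped, at 5062, 5315 and 4384 in P95H cells against 3790, 4145 and 4850 in control cells (0.21, SE 0.12, adjusted p = 0.41). The only differences below 0 were those of Cdca5 at -0.10 (SE 0.25, adjusted p = 0.88), Cenpe at -0.01 and Ect2 close to 0.

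Other genes of mitosis, outside the 59, were counted by lists, beside 13.3% of all genes that rose and 11.9% that fell in KO skin at 10 days. In KO skin at 10 days 13 of 25 centrosome and spindle assembly genes rose and 1 fell, 8 of 17 genes of the outer kinetochore and checkpoint rose, and 7 of 18 of the inner kinetochore rose and 1 fell. Gtse1, a microtubule-binding protein of G2, rose by 1.54 on the log2 scale (SE 0.35, adjusted p = 0.013, limma), Knl1, the platform of the outer kinetochore, by 1.35 (SE 0.30, adjusted p = 0.012) and Mybl2, the B-MYB partner of MuvB, by 1.78 (SE 0.38, adjusted p = 0.0099). Cenpb, which binds centromeric repeats, fell by 0.49 (SE 0.11, adjusted p = 0.014). Near the share over all genes, 1 of 17 subunits and regulators of the anaphase promoting complex and 1 of 12 cohesin genes rose, Fbxo5, the inhibitor EMI1, by 0.77 (SE 0.20, adjusted p = 0.021) and Esco2, the cohesin acetyltransferase, by 1.30 (SE 0.33, adjusted p = 0.017). Of the regulators of the DREAM, MuvB, MYB and E2F group 7 of 19 rose and 2 fell, of the other mitotic kinases, phosphatases and brakes 5 of 14 rose and 1 fell, and of condensin II and related genes 3 of 7 rose.

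Genes of S phase, which come earlier in the cycle, rose in 17 of 18 cases in KO skin at 10 days, with a median of 1.09, where 13.3% of all genes rose. At 4 days none of the 18 passed, with a median of 0.47, where 7.21% of all genes rose. Mcm2, a subunit of the replicative helicase, differed by 1.36 at 10 days (SE 0.32, adjusted p = 0.015, limma) and by 0.47 at 4 days (SE 0.32, adjusted p = 0.39). In P95H skin at 28 days 10 of 18 S phase genes rose, with a median of 0.58, where 6.7% of all genes rose, among them Mcm2 by 0.97 (SE 0.21, adjusted p = 0.0098) and Mcm4 by 0.59 (SE 0.12, adjusted p = 0.0078). Gtse1 rose there by 0.88 (SE 0.18, adjusted p = 0.0089) and Mybl2 by 0.92 (SE 0.28, adjusted p = 0.045). None of the 18 passed in sorted KO cells, with a median of 0.66, or after DMBA/TPA, with a median of 0.20.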

How the data were processed

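RNA of mouse back skin and of sorted reporter positive cells was extracted with Trizol and sequenced from total RNA kits, per the labels' protocols, a different kit for the knockout and the P95H sets. The submitters' processing notes name STAR, featureCounts and DESeq2, with no version, build or strand setting in the sources used here. The signal deposited by the authors is a normalised count per gene. Whole multiples of 1 step in each library (tolerance 0.0001) made up 100% of the sorted values, and these were taken as reads for the count tests and otherwise used as deposited. Whole-skin values were multiples too, with undetected genes at 1 step, and the multiples were analysed, which departs from the plan and was decided from the tables. For each table limma 3.58.1 with a trend took log2(value + 1) of all genes with a mean of 10 or more in a single fit. Fold changes are on that scale, which understates those of low genes. Benjamini-Hochberg adjustment ran over all genes tested, at a threshold of 0.05, two-sided. edgeR 4.0.16 and DESeq2 1.42.0 were alternatives on the reads of sorted cells. The script was tested on simulated data. Names and exon lengths were matched to GENCODE M21 (GRCm38), all 59 by name and 49 with their version.

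Members, roles and lists were chosen with earlier results of these data known, and so was the part of each list in the text. Members to be named were a preset list of known mitosis genes and, in each comparison, those with the smallest adjusted p, the largest differences either way, or a direction opposite to the rest; in comparisons with few or no calls only the first of these are given. Replicate numbers were checked for pairing by the correlation of deviations from group means: in whole skin same-numbered libraries had r from -0.46 to 0.84 and from -0.19 to 0.37, so numbers were not taken as pairs. No library of a group was a copy of another, with a lowest chi-square per degree of freedom of 5.19 over 44 pairs. Tables and figures were made with matplotlib 3.10.9, numpy 2.4.6 and pandas 2.3.3 in python 3.11.15, and fits in R 4.3.3.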

Additional observations from a re-analysis of the deposited data

Results flagged for a closer look

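In P95H skin at 28 days replicate 1 lay far from the other 3 libraries of its group in 7 of the 59 members, by Dixon's 95% critical value for a gap at the end of a group of 4. It was the lowest for Kif18a with 142 steps, Smc4 with 657, Ckap2 with 166, Hmmr with 140 and Cdca2 with 149, and the highest for Spc24 with 104 steps and Cdca5 with 82. Chance sets about 1 in 20 groups apart in this way. The library has the lowest estimated depth of its set, at 7.39 M reads (M for mega), and the part of depth in these values was not tested.

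The effects of the knockout on whole skin at 12 and at 10 days share their controls, which cancel in the difference of the effects. Its test is therefore the one given above for 12 against 10 days. It called 33 members, all lower at 12 days (limma, adjusted p under 0.05).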

How the results depend on the processing

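Under the alternatives run, the median log2 difference of the 59 genes stayed at 0.69 to 1.199 for KO skin at 4 days, 0.77 to 1.37 at 10 days, -1.13 to -0.62 for 12 against 10 days, -1.08 to -0.51 for 12 against 4 days, 0.20 to 0.48 for P95H skin at 12 days, 0.14 to 0.86 at 28 days and 0.09 to 0.29 after DMBA/TPA. It changed sign in the comparisons of KO skin at 12 days with control (-0.07 to 0.45), of 10 with 4 days (-0.12 to 0.49), of the P95H effects (-0.19 to 0.70), of the controls (-0.59 to 0.36) and of sorted KO cells (-0.24 to 0.44). Values as deposited moved the median of all genes by 0.26 at 10 days, 0.34 for 10 against 4 days, -0.16 for 12 against 10 days, 0.59 for P95H skin at 28 days, 0.71 for the P95H effects and -0.82 for the controls. Counts of members called depended more on the setting. At 4 days in KO skin the count of 15 was 8 with no filter on the mean, 8 with libraries scaled to equal totals, 28 with the replicate block (12 of the 15 among them), 0 with values as deposited and 0 with only the groups compared, and leaving out 1 library gave 0 to 43. At 10 days the count of 40 was 17 with equal totals, 54 with values as deposited and 47 with the replicate block, and leaving out 1 library gave 0 to 55. For 12 against 10 days the count of 33 was 9 with equal totals, 50 with only the groups compared and 40 with the replicate block, and leaving out 1 library gave 5 to 25. For 10 against 4 days the count of 0 became 3 with equal totals, 2 with values as deposited and 1 with only the groups compared, and leaving out 1 library gave 0 to 1. In P95H skin the count of 4 at 28 days was 2 with no filter on the mean, 2 with values as deposited, 9 with only the groups compared and 3 with the replicate block, and leaving out 1 library gave 0 to 4; at 12 days leaving out 1 library gave 0 to 2. The causes were not tested. Of 179 recomputed counts 143 stayed within 1.5 times, a tally that includes counts of 0 that stayed at 0 in comparisons with no member called. Cdc20 at 28 days kept its call in 14 of 15 alternatives, Kifc1 in 9, Ube2c in 8 and Kif4 in 5.

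No call of a named member changed sign, but 30 recomputed values of members that had not passed did. With equal totals at 10 days Anln was at -0.076, Ttk at -0.30 and Pttg1 at -0.075, and for 12 against 10 days Anln was at 0.18 and Ttk at 0.21. With values as deposited Pttg1 was at -0.15 for 12 against 10 days, and Nusap1 and Ttk at 0.26 each in P95H skin at 28 days. In sorted KO cells edgeR and DESeq2 gave 0.35 and 0.36 for Bub1 and 0.075 and 0.097 for Mki67. After DMBA/TPA Cdca5 was at 0.0037 with equal totals. Leaving out 1 library at a time gave the following ranges. At 4 days Kif18a ran from -0.072 to 0.48 and Ttk from -0.25 to 0.13. At 10 days Ttk ran from -0.16 to 0.18 and Pttg1 from -0.11 to 0.49. At 12 days Espl1 ran from -0.38 to 0.023 and Mki67 from -0.031 to 0.61, and for 12 against 10 days Pttg1 ran from -0.095 to 0.14 and Ttk from -0.16 to 0.0043. In sorted KO cells Kif18a ran from -1.02 to 0.29, Bub1 from -0.84 to 0.68, Mki67 from -0.41 to 0.35 and Ttk from -0.89 to 0.086, each highest without replicate 2 and lowest without replicate 1, and after DMBA/TPA Cdca5 ran from -0.27 to 0.19.

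The numbers of the replicates do not pair the samples by their labels. In both sorted sets each pair of same-numbered libraries correlated more than any pair of different numbers (at least 0.06, against at most -0.01 and 0.02), a hint from the data and not the design, and the replicate block left the counts there at 0. Depth limits low members most in the P95H set, where it was estimated at 7.39 to 32.3 M reads.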
